A study of Mus musculus with 16 samples.

Results

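The genes described here are 10 components of the slow, oxidative muscle fibre's contractile apparatus, chosen by symbol from a deposited table of 13701 genes. All 10 were present: the myosin chains Myh7, Myl2 and Myl3, the troponin subunits Tnnt1, Tnni1 and Tnnc1, the tropomyosin Tpm3, and the Z-disc proteins Myoz2, Csrp3 and Actn2. They were measured in total RNA of bulk quadriceps and liver from male C57BL/6J mice aged 12 to 14 weeks, collected 7 days after an adeno-associated virus (AAV). The virus was AAV-DJ8-TGB-Yap1S5A, carrying Yap1S5A, an activated form of the transcriptional coactivator Yap1, or AAV-DJ8-TGB-EGFP, carrying green fluorescent protein (GFP) as the control. Each tissue and vector had 4 libraries, 16 in all, and a quadriceps library of one vector was compared with a quadriceps library of the other. The design text calls the expression of Yap1S5A hepatic. The treatment text that came with the samples describes sham surgery or partial hepatectomy instead, so the groups follow the sample titles and are called Yap1S5A-labelled and GFP-labelled.

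A sarcomere is the repeating contractile unit of striated muscle, in which myosin thick filaments pull on actin thin filaments anchored at Z discs. Slow fibres carry the heavy chain Myh7, and fast fibres carry Myh2, Myh1 or Myh4 together with fast versions of the light chains, troponins and other partners. The mouse quadriceps is predominantly a fast muscle, and its slow fibres lie mainly in its deep portion. Yap1 acts through the TEAD factors, which bind the M-CAT motif found upstream of many muscle genes.

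The bases before the start of 4 of these genes are shown because they hold an M-CAT or a MEF2 motif, the binding motifs of the TEAD factors and of the MEF2 factors of the muscle gene programme. Each is the 250 bases upstream of a RefSeq start in GRCm38.p6, read 5′ to 3′ on the gene's own strand. The windows lie at chr14:54994627-54994876 on the minus strand for Myh7, chr9:110763428-110763677 on the plus strand for Myl3, chr14:31208062-31208311 on the plus strand for Tnnc1 and chr3:123034988-123035237 on the minus strand for Myoz2. Capitals mark the M-CAT motif in Myh7, Myl3 and Tnnc1, and the MEF2 motif in Myoz2.
Myh7: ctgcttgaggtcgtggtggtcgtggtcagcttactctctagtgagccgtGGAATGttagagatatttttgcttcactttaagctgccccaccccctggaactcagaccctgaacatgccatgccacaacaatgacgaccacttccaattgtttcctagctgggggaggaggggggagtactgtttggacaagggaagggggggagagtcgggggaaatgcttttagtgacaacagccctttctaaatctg
Myl3: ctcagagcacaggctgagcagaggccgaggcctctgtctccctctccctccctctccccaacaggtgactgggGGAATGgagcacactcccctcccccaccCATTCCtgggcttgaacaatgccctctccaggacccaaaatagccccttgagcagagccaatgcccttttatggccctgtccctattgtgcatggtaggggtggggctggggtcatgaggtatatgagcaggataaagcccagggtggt
Tnnc1: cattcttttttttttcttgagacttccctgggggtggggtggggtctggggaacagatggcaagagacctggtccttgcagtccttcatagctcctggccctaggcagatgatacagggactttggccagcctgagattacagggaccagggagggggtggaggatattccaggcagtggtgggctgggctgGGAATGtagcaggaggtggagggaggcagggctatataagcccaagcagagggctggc
Myoz2: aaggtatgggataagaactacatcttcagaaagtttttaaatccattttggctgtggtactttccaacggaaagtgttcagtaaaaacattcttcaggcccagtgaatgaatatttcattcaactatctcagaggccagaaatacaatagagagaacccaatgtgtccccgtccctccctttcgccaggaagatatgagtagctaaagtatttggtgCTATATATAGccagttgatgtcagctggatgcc
For 9 of the 10 genes a RefSeq start lay within 100 bases of the deposited gene start, with Myl2 left out, and the window of the nearest such start was counted. M-CAT, searched as CATTCC or GGAATG, was present in 2 of the 9, Myl3 and Tnnc1, against 12.6% of all 32536 RefSeq windows of that length. The Myh7 window shown belongs to a second RefSeq start 77 bases upstream of the deposited one, and the window at the deposited start itself held no M-CAT. The MEF2 motif was present in 1 of the 9, against 2.89% of all windows. That match, in Myoz2, lies at position -33 from the start and contains TATATA. The letters alone cannot tell it from a TATA box, a core promoter element. The E-box, the site of myogenic factors such as MyoD, searched as CANNTG, was present in all 9, against 66.2% of all windows. None of the M-CAT or MEF2 matches overlapped an E-box match. Among the 12 fast-fibre counterparts with a matched window, 5 had M-CAT, 3 had MEF2 and 9 had an E-box. These letters were matched by sequence alone, with no measurement of binding.

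Total counts were 15696665 to 19215472 per quadriceps library and 13817718 to 16491679 per liver library. Levels are given as CPM, read counts relative to the library size after scaling by the trimmed mean of M values (TMM). The label of quadriceps was borne out by markers: the summed level of 8 muscle fibre genes was 135500 to 219500 CPM in quadriceps and 18.01 to 312 CPM in liver. Yap1 itself was at 70.1 to 87.2 CPM in Yap1S5A-labelled and 58.0 to 69.1 CPM in GFP-labelled quadriceps, with log2 fold change 0.26 ± 0.10 (SE) and edgeR adjusted p = 0.106. In liver it went against the label, at 47.1 to 55.1 CPM in Yap1S5A-labelled and 69.9 to 81.5 CPM in GFP-labelled libraries (edgeR adjusted p = 0.00089). Whether transcripts of the vector enter this count is not given in the sources used here. GFP-labelled quadriceps replicates 1 and 4 stood apart from the other 6 quadriceps libraries for the slow-fibre genes. Results on fold changes, spread, shares and correlations are also given without each of them in turn, so the other one always remained.

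Slow-fibre sarcomere genes varied between quadriceps libraries more than nearly any other genes, and the 2 vector groups overlapped for all 10, where 15.5% of all genes tested had groups that did not overlap. Mean levels were higher in Yap1S5A-labelled quadriceps for all 10, by a median log2 fold change of 1.06 (0.0049 for all genes tested), but none passed the test. In bulk tissue, fewer fibres of a type and less RNA per fibre cannot be told apart. By edgeR's quasi-likelihood test with Benjamini-Hochberg adjustment over 12121 genes, 0 of 10 had an adjusted p under 0.05, against 9.03% of all genes, and adjusted p ran from 0.409 to 0.824. None of the 10 had an unadjusted p under 0.05, and DESeq2 also called 0 of 10, against 11.7% of all genes.

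**Figure D1:**
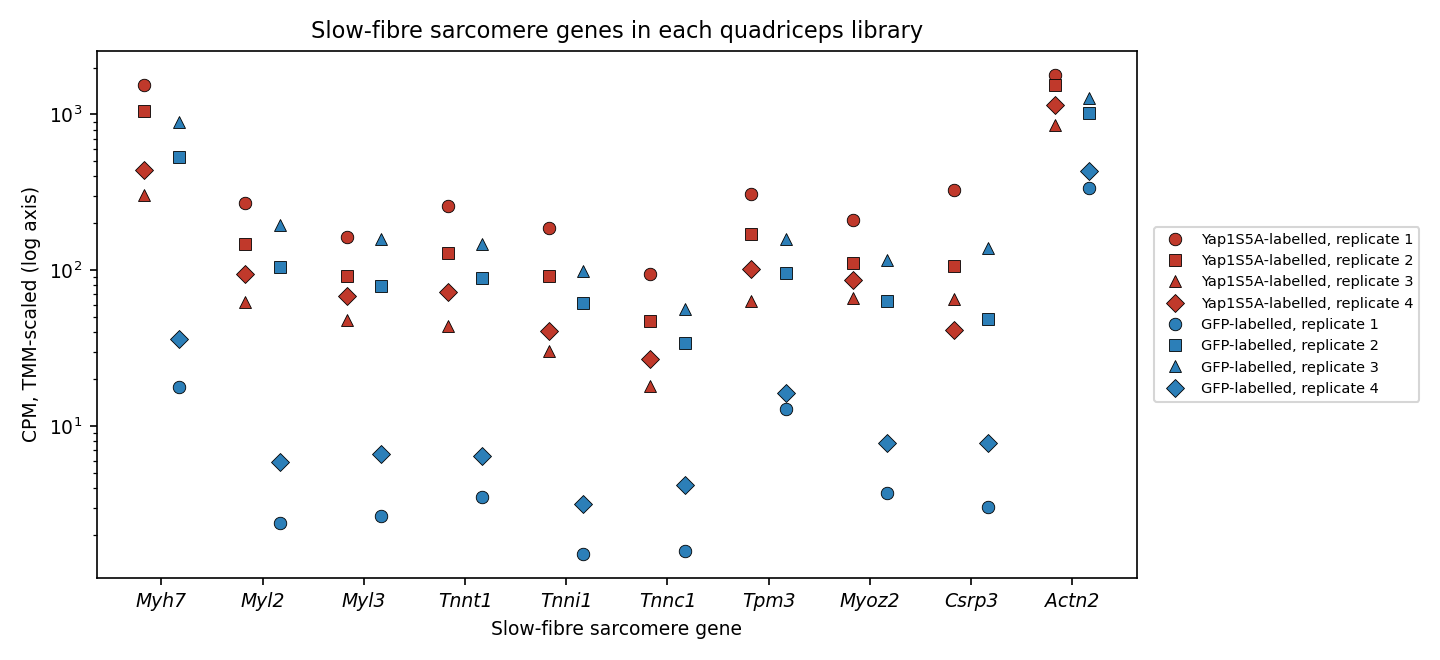
Level of each slow-fibre sarcomere gene (CPM, TMM-scaled, log axis) in each quadriceps library, with red symbols for Yap1S5A-labelled and blue for GFP-labelled libraries and a symbol for each replicate. GFP-labelled replicates 1 and 4 lie below all other libraries for every gene, while GFP-labelled replicates 2 and 3 lie within the range of the Yap1S5A-labelled libraries, except Myoz2 in GFP-labelled replicate 2 (63.7 against a lowest Yap1S5A-labelled value of 66.7 CPM).

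The thick filament was represented by a motor and its light chains. Myh7, the slow and cardiac beta myosin heavy chain (mm10, chromosome 14, 54970688 to 54994549, minus strand, 41 exon segments), was at 1550, 1049, 302 and 438 CPM in Yap1S5A-labelled replicates 1 to 4. In GFP-labelled replicates 1 to 4 it was at 17.8, 533, 892 and 36.3 CPM. The highest and lowest GFP-labelled libraries thus differed 50.2-fold, against 5.13-fold among Yap1S5A-labelled libraries, and GFP-labelled replicates 2 and 3 lay inside the Yap1S5A-labelled range. The log2 fold change was 1.18 ± 1.29 (SE, 4 against 4 libraries), with a 95% interval from -1.99 to 4.34 and edgeR adjusted p = 0.653.

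Myl2, the regulatory light chain of slow myosin (chromosome 5, 122100980 to 122106854, plus strand), was at 271, 148, 62.2 and 94.6 CPM in Yap1S5A-labelled and 2.4015, 105, 197 and 5.89 CPM in GFP-labelled replicates 1 to 4. Its spread among GFP-labelled libraries, 81.9-fold, was the widest of the 10. Its log2 fold change was 0.90 ± 1.29 (edgeR adjusted p = 0.743). Myl3, the essential light chain (chromosome 9, 110763681 to 110769794, plus strand), was at 163, 92.4, 48.1 and 68.3 CPM in Yap1S5A-labelled and 2.65, 79.9, 159 and 6.67 CPM in GFP-labelled replicates 1 to 4. GFP-labelled replicate 3 was nearly level with the highest Yap1S5A-labelled library, and the log2 fold change of 0.59 ± 1.18 was the smallest of the 10 (edgeR adjusted p = 0.824).

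On the thin filament, the troponin subunits followed the same order of libraries. Tnnt1, the slow tropomyosin-binding subunit (chromosome 7, 4504570 to 4515975, minus strand), was at 260, 128, 44.2 and 72.7 CPM in Yap1S5A-labelled and 3.54, 89.1, 147 and 6.41 CPM in GFP-labelled replicates 1 to 4. Tnni1, the slow inhibitory subunit (chromosome 1, 135799421 to 135810989, plus strand), was at 187, 92.6, 30.4 and 40.8 CPM in Yap1S5A-labelled and 1.52, 61.8, 99.1 and 3.17 CPM in GFP-labelled replicates 1 to 4. Tnnc1, the calcium-binding subunit of slow and cardiac muscle (chromosome 14, 31208312 to 31211711, plus strand), was at 94.4, 47.6, 17.98 and 27.04 CPM in Yap1S5A-labelled and 1.58, 34.1, 56.8 and 4.21 CPM in GFP-labelled replicates 1 to 4. For each of the 3 subunits, GFP-labelled replicates 2 and 3 were above the lowest 2 Yap1S5A-labelled libraries. Log2 fold changes were 1.04 ± 1.22 for Tnnt1, 1.09 ± 1.29 for Tnni1 and 0.96 ± 1.08 for Tnnc1, with edgeR adjusted p from 0.664 to 0.681.

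Tpm3, a tropomyosin gene used by slow fibres and, through other transcripts, by non-muscle cells (chromosome 3, 90072651 to 90100902, plus strand), was at 308, 172, 63.2 and 101 CPM in Yap1S5A-labelled and 12.9, 96.8, 160 and 16.4 CPM in GFP-labelled replicates 1 to 4. Its GFP-labelled libraries spanned 12.4-fold, less than those of the myosin and troponin genes. Its log2 fold change was 1.17 ± 0.96 (edgeR adjusted p = 0.536).

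At the Z disc, Myoz2, which binds alpha-actinin and calcineurin (chromosome 3, 123006206 to 123034987, minus strand), was at 211, 111, 66.7 and 87.0 CPM in Yap1S5A-labelled and 3.73, 63.7, 116 and 7.83 CPM in GFP-labelled replicates 1 to 4. Csrp3, the muscle LIM protein (chromosome 7, 48830398 to 48848051, minus strand), was at 328, 107, 65.3 and 41.3 CPM in Yap1S5A-labelled and 3.03, 48.9, 139 and 7.83 CPM in GFP-labelled replicates 1 to 4. Actn2, the alpha-actinin that crosslinks actin in the Z discs of all fibre types (chromosome 13, 12269427 to 12340732, minus strand), was at 1799, 1541, 854 and 1146 CPM in Yap1S5A-labelled and 337, 1017, 1279 and 436 CPM in GFP-labelled replicates 1 to 4. Actn2 had the narrowest range of the 10, with 3.79-fold among GFP-labelled libraries. Csrp3 had the largest fitted log2 fold change, 1.45 ± 1.26 (edgeR adjusted p = 0.562). Myoz2 had 1.31 ± 1.06 (adjusted p = 0.531), and Actn2 had 0.80 ± 0.50 with a 95% interval from -0.42 to 2.02 and the lowest adjusted p of the 10, 0.409.

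Standard errors were 0.50 to 1.29 on the log2 scale for the 10 genes, against a median of 0.144 over all genes tested. Leaving out GFP-labelled replicate 1 brought the median log2 fold change of the 10 genes to 0.65, and leaving out GFP-labelled replicate 4 brought it to 0.67. Without GFP-labelled replicate 3 it was 1.93, and without Yap1S5A-labelled replicate 1 it was 0.47. In all 8 fits that left out 1 library the 10 values were positive, and the lowest adjusted p in any of them was 0.240 (edgeR).

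The order of the libraries was shared by nearly all of the genes. From high to low, the Yap1S5A-labelled replicates ran 1, 2, 4 and 3 for 9 of the 10 genes, with Csrp3 the exception. GFP-labelled replicates ran 3, 2, 4 and 1 for all 10. The mean log2 CPM of the 10 genes was 8.33, 7.45, 6.22 and 6.64 in Yap1S5A-labelled replicates 1 to 4 and 2.60, 6.78, 7.60 and 3.59 in GFP-labelled replicates 1 to 4. The SD of log2 CPM was larger in the GFP-labelled group for all 10 genes, for example 3.07 against 0.91 for Myl2 and 0.93 against 0.48 for Actn2. It was also larger for all 10 without GFP-labelled replicate 1 or without GFP-labelled replicate 4. Each of these recalculations keeps the other low library, so they cannot show the spread without both. GFP-labelled replicates 2 and 3 alone, at 6.78 and 7.60, lay within the Yap1S5A-labelled range of mean log2 CPM.

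Against all genes tested, the pooled within-group SD of log2 CPM placed Myl2 (2.264), Tnni1 (2.263) and Myh7 (2.12) at ranks 1 to 3 of 12121. Myl3, Tnnt1, Csrp3, Tnnc1, Myoz2 and Tpm3 were also among the 20 largest, which makes 9 of the 10. Actn2 ranked 311 with an SD of 0.74. The median over the 10 genes was 2.01, and over all genes tested it was 0.20. Without GFP-labelled replicate 1 the median of the 10 was 1.64, and without GFP-labelled replicate 4 it was 2.03, with 8 of the 10 genes among the 20 largest in each case.

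**Figure D2:**
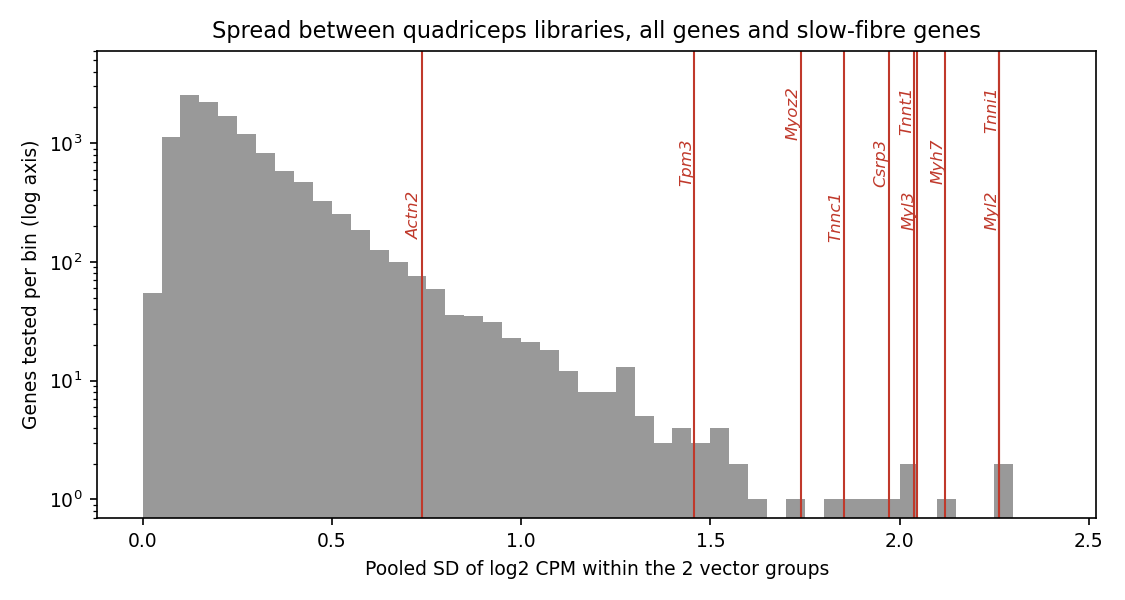
Pooled within-group SD of log2 CPM (prior count 2) of all genes tested in quadriceps, with the slow-fibre genes marked. Of the 10 genes, 9 lie at the far upper end, and Actn2 lies lower at 0.74.

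Deviations from the group mean were shared between genes. Over the 8 quadriceps libraries, which are the same for every gene, Pearson's r between 2 of the 10 genes ran from 0.948 to 0.999 across 45 pairs. For a gene against the mean of the other 9 genes, r was lowest for Csrp3 (0.966) and highest for Tnni1 (0.998). When the 2 libraries farthest from the median, GFP-labelled replicates 1 and 3, were left out, r for Csrp3 was 0.912 and for Tnni1 0.999. The lowest r between 2 of the 10 genes was 0.914 without GFP-labelled replicate 1 and 0.943 without GFP-labelled replicate 4, in recalculations chosen after seeing the data. These values describe the libraries and carry no test.

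Per kb of exonic length, and averaged over the 8 quadriceps libraries, the order of levels was Actn2 at 352 CPM per kb, Myl2 at 175, Myh7 at 99.5, Csrp3 at 95.2, Tnnt1 at 91.2, Myl3 at 86.3, Myoz2 at 72.4, Tnni1 at 58.0, Tnnc1 at 50.4 and Tpm3 at 34.8 CPM per kb. The ranges over libraries of all neighbours in that order overlapped. The length of Tpm3 includes exons of its non-muscle transcripts.

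Beside their fast counterparts, slow transcripts were the minority in every quadriceps library. Per kb, Myh7 made up 2.86, 1.77, 0.561 and 0.946% of the adult myosin heavy chain transcripts (Myh7, Myh2, Myh1 and Myh4) in Yap1S5A-labelled replicates 1 to 4, and 0.0166, 0.640, 1.049 and 0.0397% in GFP-labelled replicates 1 to 4. The means were 1.54% ± 1.02 (SD, n = 4) and 0.436% ± 0.4999 (SD, n = 4). The difference of 1.10 percentage points did not pass the test (exact permutation test over 70 arrangements, two-sided, p = 0.143, where the smallest possible is 0.0286). Without GFP-labelled replicate 1 the difference was 0.959, without GFP-labelled replicate 4 it was 0.967, and without Yap1S5A-labelled replicate 1 it was 0.657 percentage points.

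The other heavy chains also differed from library to library. Myh2, the chain of the fast oxidative fibres, made up 9.10, 5.45, 3.47 and 3.78% in Yap1S5A-labelled and 0.243, 2.44, 4.29 and 0.418% in GFP-labelled replicates 1 to 4. Myh1 made up 10.1, 15.5, 10.3 and 13.5% in Yap1S5A-labelled and 2, 8.86, 9.87 and 2.83% in GFP-labelled replicates 1 to 4. Its share did not overlap between the groups and was not tested. The level of Myh1 did overlap and was not called (log2 fold change 0.37 ± 0.51, edgeR adjusted p = 0.733). Myh4, the chain of the fast glycolytic fibres, made up 78.0, 77.3, 85.6 and 81.8% in Yap1S5A-labelled and 97.7, 88.1, 84.8 and 96.7% in GFP-labelled replicates 1 to 4. The GFP-labelled libraries with the lowest Myh7 share, replicates 1 and 4, therefore had the highest Myh4 share and the lowest Myh2 share.

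The same 2 libraries were lowest in all 9 pairs of a slow gene and its fast partner. Myl2 made up 0.0284 and 0.0547% of Myl2 and Mylpf in GFP-labelled replicates 1 and 4, against 1.23 and 2.59% in GFP-labelled replicates 2 and 3 and 0.987 to 5.43% in Yap1S5A-labelled libraries. Myoz2 made up 0.199 and 0.435% of Myoz2 and Myoz1 in GFP-labelled replicates 1 and 4, and 3.75 and 6.85% in replicates 2 and 3. Actn2 had the highest shares, with 6.55 to 16.3% of Actn2 and Actn3 in Yap1S5A-labelled and 2.38 to 12.1% in GFP-labelled libraries. The groups overlapped in all 9 pairs. Leaving out GFP-labelled replicate 1 or 4 cannot undo this overlap, because both lay below every Yap1S5A-labelled library in each pair. Shares within a library do not depend on the scaling between libraries.

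**Figure D3:**
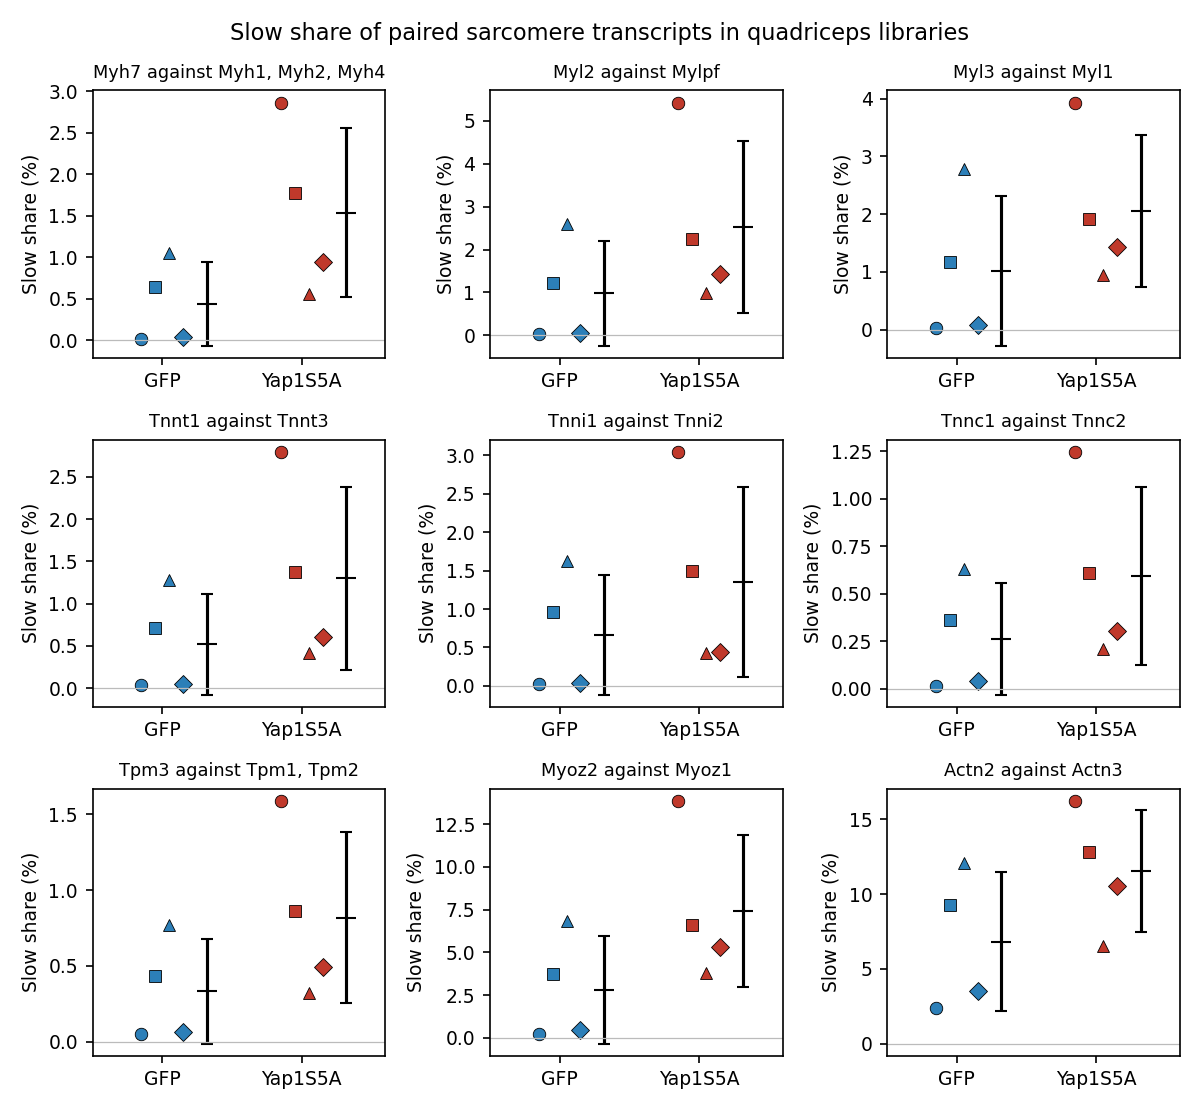
Share of the slow gene in the slow and fast total (percent, counts per kb of exonic length) in each quadriceps library, with points for libraries and a black bar for the group mean ± SD. GFP-labelled replicates 1 and 4 lie near 0 in each panel other than Actn2, where they lie at 2.38 and 3.51%.

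The 10 genes whose deviations from the group mean were most like those of the slow genes were ranked among 8705 other genes with a mean of at least 5 CPM. Over the 8 libraries Pearson's r was 0.9995 for Pdlim1, a PDZ and LIM domain protein that binds alpha-actinin, 0.9945 for Bdh1, an enzyme of ketone body use, and 0.9944 for Myh2. It was 0.994 for the ankyrin repeat protein Ankrd2, 0.9935 for Ldhb, the heart-type subunit of lactate dehydrogenase, and 0.9917 for Dgat2, an enzyme of triglyceride synthesis. Letm1, a protein of the inner mitochondrial membrane, had r = 0.9895 but an SD of only 0.082, and Smtnl1 (0.989), the small heat shock protein Hspb7 (0.989) and the nuclear receptor Esrrb (0.988) completed the 10. None of the 10 passed the test between vectors, with edgeR adjusted p from 0.408 to 0.734. Of the 8705 genes, 161 had r of at least 0.9 and 150 had r of -0.9 or lower, and the median r was -0.118. Without GFP-labelled replicate 1, r of the 10 named genes was at least 0.981, and 214 and 183 genes passed these limits. Without GFP-labelled replicate 4, r was at least 0.988, and 231 and 248 genes passed them.

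**Figure D4:**
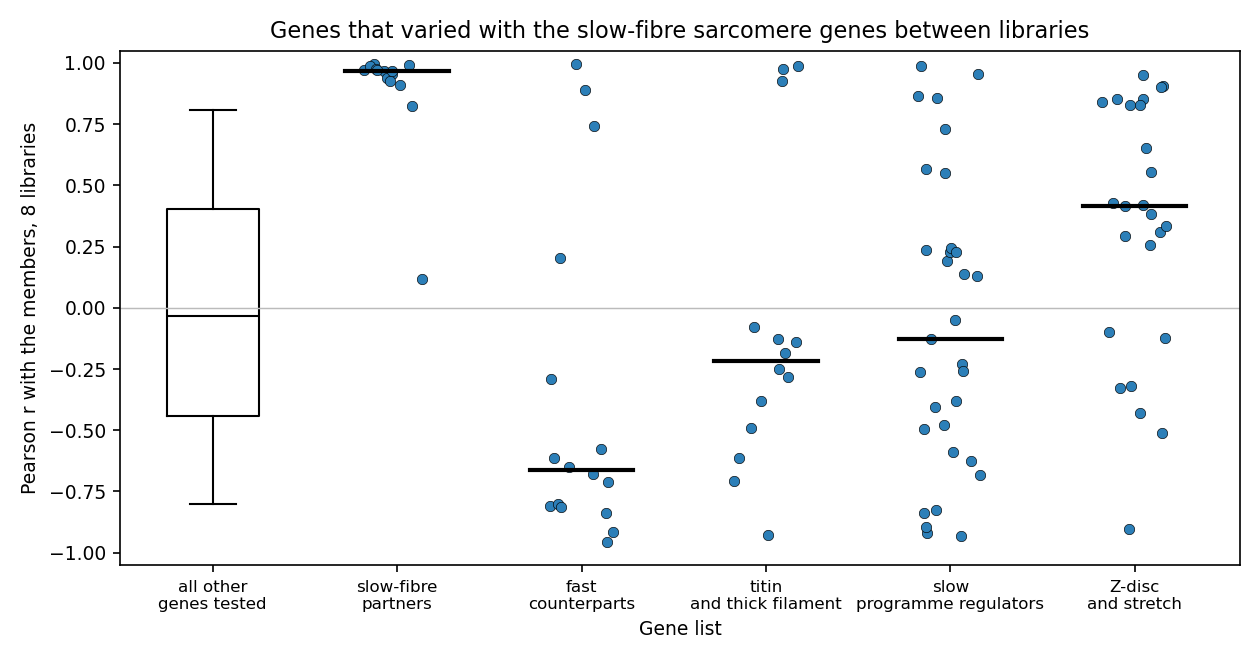
Pearson's r, over the 8 quadriceps libraries, between each gene's deviation from its group mean and the mean deviation of the 10 slow-fibre genes. The box shows all other genes tested (quartiles, with whiskers at the 5th and 95th percentiles), each point is a gene of a list, and thick black lines are list medians, at 0.968 for slow-fibre partners and -0.663 for fast-fibre counterparts.

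Slow-fibre partners outside the sarcomere list also varied widely between libraries. Of 15 listed genes, which cover slow calcium handling, myosin relatives and fat and oxygen use, 14 were tested in quadriceps. None of the 14 passed the test in either direction, against 9.03% of all genes, and their median log2 fold change was 0.63. Of these, 12 had r of at least 0.9 with the slow-fibre mean, against 13 without GFP-labelled replicate 1 and 11 without GFP-labelled replicate 4. Atp2a2, the slow and cardiac calcium pump, was at 515, 284, 117 and 141 CPM in Yap1S5A-labelled and 39.0, 181, 294 and 45.9 CPM in GFP-labelled replicates 1 to 4. Mb, myoglobin, was at 2298, 2566, 1529 and 2117 CPM in Yap1S5A-labelled and 427, 1867, 2571 and 631 CPM in GFP-labelled replicates 1 to 4. Both were lowest in GFP-labelled replicates 1 and 4. Sln, sarcolipin, had r = 0.119 and was highest in GFP-labelled replicate 4 at 13.0 CPM. Atp2a2, Mb and Sln were chosen as examples after their values were seen.

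Of 16 fast-fibre counterparts, 6 were lower in Yap1S5A-labelled quadriceps while 0 were higher, against 4.82% and 4.21% of all genes. Myh2 and Myh1 had errors as wide as those of the slow genes (SE 0.92 and 0.51), and the other counterparts had SE of 0.10 to 0.19. Casq1, the fast calsequestrin, was at 1083 to 1300 CPM in Yap1S5A-labelled and 2537 to 3398 CPM in GFP-labelled libraries, with log2 fold change -1.35 ± 0.11 (edgeR adjusted p = 5.89e-05). Myh4 was at 37730 to 45960 CPM against 71940 to 104100 CPM, with log2 fold change -0.98 ± 0.13 (edgeR adjusted p = 0.000765). Neither pair of groups overlapped. The other 4 were Pvalb, the calcium buffer parvalbumin (-0.76 ± 0.19, edgeR adjusted p = 0.0311), the fast light chains Myl1 (-0.64 ± 0.13, adjusted p = 0.00978) and Mylpf (-0.55 ± 0.13, adjusted p = 0.0212), and Mybpc2, the fast myosin-binding protein C (-0.42 ± 0.12, adjusted p = 0.0487). The median log2 fold change of the 16 was -0.24. Their median r with the slow-fibre mean was -0.663, and it was -0.741 without GFP-labelled replicate 1 and -0.584 without GFP-labelled replicate 4.

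Several of these calls were lost when 1 library was left out. Pvalb missed the threshold in 6 of the 8 fits that left out 1 library, all other than those without Yap1S5A-labelled replicate 1 or GFP-labelled replicate 3 (edgeR adjusted p 0.0513 to 0.0628). Mylpf missed it without Yap1S5A-labelled replicate 1 or 3 or GFP-labelled replicate 4 (edgeR adjusted p 0.0541 to 0.0774). Mybpc2 missed it in 7 of the 8, all other than the fit without GFP-labelled replicate 3 (edgeR adjusted p 0.0605 to 0.135). With all 16 libraries in one fit, Myh4 and Myl1 also missed it (edgeR adjusted p = 0.501 and 0.512).

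In a fit chosen after seeing the data, the mean log2 CPM of the 10 slow genes in each library was added as a covariate beside the vector. Casq1 had -1.23 (edgeR adjusted p = 2.6e-05), Myh4 -0.78 (adjusted p = 0.0026) and Myl1 -0.42 (adjusted p = 0.0454) in that fit, while Pvalb, Mylpf and Mybpc2 missed the threshold. Over all genes other than the 10, the covariate took the number called from 510 to 347 higher and from 584 to 372 lower. Of the 1094 and 719 genes called without and with it, 577 were called in the same direction in both. The covariate differs between the groups as well as within them, so it also takes up part of any difference between vectors.

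Among 25 other Z-disc and stretch-response genes tested, 2 rose and 4 fell, against 4.21% and 4.82% of all genes. Those with the largest changes were Myoz3, a relative of Myoz2 of fast fibres (-1.13 ± 0.11, edgeR adjusted p = 0.000122), Nrap, an anchor of actin at the muscle cell's ends (0.75 ± 0.17, adjusted p = 0.0193), the LIM protein Fhl3 (-0.64 ± 0.12, adjusted p = 0.00617) and Capza2, an actin capping subunit (-0.57 ± 0.10, adjusted p = 0.00239). Nrap missed the threshold in the fits without Yap1S5A-labelled replicate 1, 2 or 4 or GFP-labelled replicate 1 (edgeR adjusted p 0.0501 to 0.0611). Myoz3 was at 113 to 153 CPM in Yap1S5A-labelled and 247 to 304 CPM in GFP-labelled libraries, while Myoz2 overlapped between the groups.

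Among 31 regulators of the slow fibre programme tested, 1 rose and 4 fell, against 4.21% and 4.82% of all genes. Tead4, a DNA-binding partner of Yap1, was at 10.7, 10.3, 8.93 and 11.6 CPM in Yap1S5A-labelled and 5.63, 6.02, 4.91 and 4.73 CPM in GFP-labelled replicates 1 to 4 (log2 fold change 0.96 ± 0.14, edgeR adjusted p = 0.00138). Its groups did not overlap, and its r with the slow-fibre mean was 0.129. Those that fell were Mef2c, a transcription factor of muscle genes (-0.44 ± 0.09, edgeR adjusted p = 0.00731), Smyd1, a muscle methyltransferase (-0.40 ± 0.09, adjusted p = 0.0128), Hdac4, a class IIa deacetylase that represses MEF2 (-0.46 ± 0.12, adjusted p = 0.0287), and Tbx15, a T-box factor of glycolytic fibres (-0.40 ± 0.12, adjusted p = 0.0493). Hdac4 missed the threshold without Yap1S5A-labelled replicate 1, 2 or 4 or GFP-labelled replicate 2 or 4 (edgeR adjusted p 0.0641 to 0.0968), and Tbx15 without any 1 library other than Yap1S5A-labelled replicate 3 or GFP-labelled replicate 3 (edgeR adjusted p 0.0780 to 0.133). Tbx15 also missed it with RLE size factors in place of TMM (edgeR adjusted p = 0.0511).

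Of 14 other thick filament, titin and actin genes, 1 rose and 4 fell, against 4.21% and 4.82% of all genes. Mybph, myosin-binding protein H, was at 51.6 to 95.02 CPM in Yap1S5A-labelled and 327 to 573 CPM in GFP-labelled libraries, with log2 fold change -2.63 ± 0.24 (edgeR adjusted p = 0.000755). Obsl1 (-0.60 ± 0.11, adjusted p = 0.00443), the thin filament cap Tmod1 (-0.48 ± 0.11, adjusted p = 0.0117) and the myosin chaperone Unc45b (-0.40 ± 0.11, adjusted p = 0.0402) also fell in edgeR's test, and the M-band protein Myom1 rose (0.45 ± 0.10, adjusted p = 0.0133). Unc45b missed the threshold in 6 of the 8 fits that left out 1 library, all other than those without GFP-labelled replicate 2 or 3 (edgeR adjusted p 0.0557 to 0.129), and Myom1 without GFP-labelled replicate 4 (adjusted p = 0.0520). Of 6 genes in the table listed as developmental and cardiac sarcomere genes, 1 fell and 1 rose, against 4.82% and 4.21% of all genes. Actc1, the cardiac actin, fell by 2.07 ± 0.45 on the log2 scale (edgeR adjusted p = 0.0394). Myl9, on that list but a light chain of smooth muscle and non-muscle myosin, rose by 0.52 ± 0.12 (edgeR adjusted p = 0.0162). Actc1 missed the threshold in each fit that left out 1 library other than GFP-labelled replicate 3 (edgeR adjusted p 0.0530 to 0.102), and Myl9 missed it without Yap1S5A-labelled replicate 2 (adjusted p = 0.0529).

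Markers of other cell types moved with the libraries to different degrees. The summed level of 7 macrophage markers was 161 to 279 CPM in Yap1S5A-labelled and 56.3 to 105 CPM in GFP-labelled quadriceps. All 7 were called higher by edgeR, against 4.21% of all genes, with r = 0.518 between their summed level and the slow-fibre mean. For 5 Schwann and nerve markers the sum was 49.8 to 86.4 CPM against 31.9 to 110 CPM (r = 0.885), for 6 endothelial markers 239 to 308 CPM against 164 to 285 CPM (r = 0.852), and for 7 adipocyte markers 134 to 432 CPM against 71.5 to 224 CPM (r = 0.646). The 8 muscle fibre markers summed to 135500 to 164300 CPM against 185300 to 219500 CPM (r = -0.770). Of these, Myh4 had the highest mean, 42860 against 84290 CPM. Des (4469 against 3583 CPM, edgeR adjusted p = 0.0455) and Mb (2127 against 1374 CPM, not called) had higher means in Yap1S5A-labelled quadriceps, and the others had lower means. Des missed the threshold in 7 of the 8 fits that left out 1 library (edgeR adjusted p 0.0693 to 0.149). The 8 hepatocyte markers summed to 20.7 to 150 CPM against 13.5 to 33.5 CPM (r = -0.00565), and the 3 heart muscle markers in the table summed to 110 to 224 CPM against 351 to 1141 CPM (r = -0.425). The heart muscle sum was mostly Actc1, at a mean of 159 against 666 CPM. Myh6 (3.08 against 1.99 CPM) and Myl4 (4.18 against 3.11 CPM) had higher means in Yap1S5A-labelled quadriceps and were not called. Sums were 152 to 199 CPM against 114 to 163 CPM for 4 smooth muscle markers (r = 0.684), 511 to 576 CPM against 684 to 1001 CPM for 5 fibroblast markers (r = 0.371) and 211 to 253 CPM against 263 to 478 CPM for 6 tendon markers (r = 0.333). They were 7.94 to 9.17 CPM against 7.65 to 11.8 CPM for 4 satellite cell markers (r = 0.783) and 61.5 to 68.8 CPM against 82.4 to 89.5 CPM for 3 red blood cell markers (r = -0.344). The red blood cell sum was mostly Bpgm, at a mean of 58.0 against 82.1 CPM. Slc4a1 (1.39 against 0.212 CPM, edgeR adjusted p = 0.0228) and Alas2 (4.01 against 2.10 CPM, edgeR adjusted p = 0.221) had higher means in Yap1S5A-labelled quadriceps. Without GFP-labelled replicate 1, r was 0.142 for macrophage, 0.430 for adipocyte, 0.856 for Schwann, 0.767 for endothelial, 0.510 for smooth muscle, 0.607 for satellite cell and -0.746 for muscle fibre markers. It changed sign for fibroblast (-0.228), tendon (-0.109), hepatocyte (0.295) and red blood cell markers (0.0658), and was -0.789 for heart muscle markers. Without GFP-labelled replicate 4, r was 0.658 for macrophage, 0.824 for adipocyte, 0.639 for fibroblast, 0.496 for tendon and -0.224 for heart muscle markers. No list had a gene at 0 in all quadriceps libraries. The part of these markers in the spread of the slow-fibre genes was not tested, and neither was the place in the muscle from which each sample was taken.

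In liver, an organ without sarcomeres, 5 of the 10 genes passed the filter on low counts. Levels of 8 of the 10 were at most 5.41 CPM in any liver, while Tpm3 and, in GFP-labelled livers, Csrp3 were above their levels in GFP-labelled quadriceps replicates 1 and 4. Of these, Csrp3, Myh7 and Tnnt1 were lower and Tpm3 was higher in Yap1S5A-labelled livers, against 63.6% of all 12818 genes called (30.3% lower and 33.3% higher), so calls in liver were common. Csrp3 had 342, 341, 363 and 321 counts in GFP-labelled replicates 1 to 4 and 30, 17, 27 and 19 counts in Yap1S5A-labelled replicates 1 to 4. That is 26.4 ± 1.11 CPM against 1.26 ± 0.369 CPM (SD, n = 4), with log2 fold change -4.39 ± 0.20 (edgeR adjusted p = 7e-10). Csrp3 thus had a tight difference in liver, with groups that did not overlap (as for 57.4% of genes there), and a wide and overlapping one in quadriceps.

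Tpm3 was at 87.6 ± 8.13 CPM in Yap1S5A-labelled and 44.2 ± 5.55 CPM in GFP-labelled livers (SD, n = 4), with log2 fold change 0.98 ± 0.13 (edgeR adjusted p = 1.55e-05). Myh7 had 1, 2, 7 and 16 counts in Yap1S5A-labelled and 38, 21, 71 and 12 counts in GFP-labelled replicates 1 to 4, with log2 fold change -2.94 ± 0.66 (edgeR adjusted p = 0.00159). Tnnt1 had 8, 10, 7 and 11 counts against 13, 19, 47 and 11 counts, with log2 fold change -1.82 ± 0.48 (edgeR adjusted p = 0.00396). Actn2 had 1 to 38 against 3 to 55 counts and did not pass (-1.25 ± 0.97, edgeR adjusted p = 0.285), although without Yap1S5A-labelled liver replicate 4, its highest library of that group, it had -2.87 and adjusted p = 0.0190. With all 16 libraries in one fit, Myh7, Tnnt1 and Tpm3 missed the threshold in liver (edgeR adjusted p = 0.151, 0.375 and 0.233).

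GFP-labelled liver replicate 3 had the highest count of Myh7, Tnnt1 and Actn2, and also the highest summed level of the 8 muscle fibre markers, 312 CPM against 18.01 to 113 CPM in the other livers. Its Csrp3 count, 363, was close to that of the other GFP-labelled livers. GFP-labelled liver replicate 1 had the lowest muscle fibre sum, 18.01 CPM, but 38 counts of Myh7. GFP-labelled liver replicates 2 and 4, with sums of 95.4 and 103 CPM, had 21 and 12. Among Yap1S5A-labelled livers, replicate 4 had the highest sum (113 CPM) and the highest counts of Myh7 (16) and Actn2 (38). The part of muscle RNA in these low liver values was not tested. The other 5 genes had at most 30 counts in any liver: Myl3 was at 0 in 1 liver, Tnni1 in 2 and Myoz2 in 3, where a count of 0 allows up to 3 counts, or 0.158 to 0.246 CPM.

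The difference between tissues in the effect of the vector was tested over all 16 libraries. It was called for Csrp3, at 5.85 ± 1.49 on the log2 scale, quadriceps minus liver (edgeR adjusted p = 0.00571), and for none of the other 9, against 48.0% of 13669 genes. Myh7 had a difference of 4.12 ± 1.96 (edgeR adjusted p = 0.103). With a block for the replicate number within a vector, 7 of the 10 were called, Myh7, Myl2, Myl3, Tnnt1, Tnnc1 and Myoz2 in addition to Csrp3, against 45.8% of all genes in that fit. The accompanying sheet gives liver and quadriceps libraries the same IDs, and the labels do not say whether these are the same mice. DESeq2 called 4, Myh7, Tnnt1 and Tnnc1 in addition to Csrp3, against 51.6% of all genes. Myl2, Myl3, Tnnc1 and Myoz2 did not pass the filter in liver alone and entered the fits over all 16 libraries through their quadriceps counts. Their counts were at most 30 in any liver, so these calls rest on low liver counts. Without Yap1S5A-labelled liver replicate 4, Actn2 was called (3.65, edgeR adjusted p = 0.0175), and without GFP-labelled quadriceps replicate 3, Myh7 was called (5.02, edgeR adjusted p = 0.0472).

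**Figure D5:**
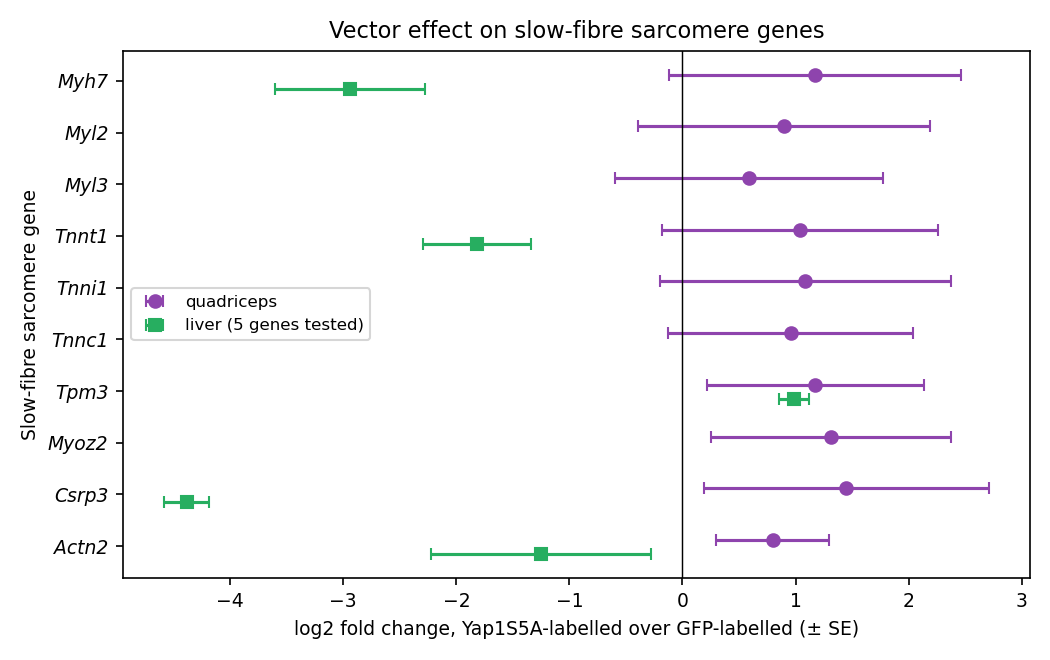
Log2 fold change of Yap1S5A-labelled over GFP-labelled libraries with its SE, from edgeR, for the 10 slow-fibre genes in quadriceps (circles) and for the 5 tested in liver (squares). In quadriceps the values run from 0.59 to 1.45 with wide errors, and in liver Csrp3 lies at -4.39 with a short error.

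The counts of 2 genes may hold reads of close relatives. Of 8858 stretches of 50 bases in annotated Myh7 transcripts, 1775 also occur in other genes, mostly Myh6, and its exons overlap antisense transcripts such as Mhrt. Of those of Tpm3, 23.2% also occur in Tpm3-rs7, and no other of the 10 genes had more than 2.46%. The sources used here do not state the strand setting, and reads of antisense transcripts cannot be told apart. Myh6 itself had a mean of 2.53 CPM in quadriceps.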

How the data were processed

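Bulk liver and quadriceps RNA of 16 libraries was prepared for sequencing by the standard protocol of the Ion Total RNA-Seq kit, per the labels' protocols. Values are raw read counts per gene, whole numbers deposited by the authors and made with FastQC 0.11.5, STAR 2.4.2a and featureCounts of Subread 1.5.0 on build mm10, per the submitters' processing notes. The sources used here do not state the strand and counting settings. A further 16 columns of scaled values were not used. Sample titles gave the groups, and barcodes joined columns to samples.

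The test was edgeR's quasi-likelihood test (edgeR 4.0.16 and limma 3.58.1 in R 4.3.3), on genes kept by filterByExpr and scaled by TMM, with a robust fit and Benjamini-Hochberg adjustment over all genes tested, at 0.05. Each tissue was fitted alone, and the interaction over all 16 libraries. Log2 CPM used a prior count of 2. Alternatives were RLE size factors, no filter, DESeq2 1.42.0, a replicate block, all libraries in one fit and leaving out each library. The fit was tested on simulated data. The simulation capped the spread per gene below that of the slow-fibre genes in quadriceps, other than Actn2, so it does not cover them. Since no label says that replicates are separate mice, p-values may reflect technical spread alone. Replicate pairs differed beyond sampling noise (chi-square per degree of freedom 12.2 to 63.7), so none was merged. Reads carry no molecular identifiers, so a limit set by a count of 0 covers counting error only.

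Genes named are the 10 members, up to 4 called genes of a list by size of change (all where 5 or fewer were called), the fast partners used in a share, and the 10 genes most like the members by Pearson's r. Mybpc2, Atp2a2, Mb, Des, Sln, Myh6, Myl4, Bpgm, Slc4a1 and Alas2 were named after their values were seen. The members and the lists were chosen with earlier results of these data known. Figures and sequence matching used Python 3.11.15, numpy 2.4.6, pandas 2.3.3 and matplotlib 3.10.9.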

Additional observations from a re-analysis of the deposited data

Results flagged for a closer look

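Of 112 groups of 4 libraries examined for a library far from the others, 4 had one, where chance flags about 1 in 20. GFP-labelled liver replicate 3 lay far above the other 3 libraries of its group for Myl2, at 2.28 CPM, and for Myoz2, at 0.914 CPM. Both are low counts, and the same library had the highest summed level of muscle fibre markers among the livers (312 CPM). In quadriceps, Yap1S5A-labelled replicate 1 lay far below the others of its group for Pvalb, at 3742 CPM, and this library had the highest mean level of the slow-fibre genes. GFP-labelled replicate 1, the lowest for the slow-fibre genes, lay far below the others of its group for Myl9, at 19.5 CPM.

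The effect of the vector on Csrp3 differed between tissues by 5.85 on the log2 scale, quadriceps minus liver, in the interaction test (edgeR adjusted p = 0.00571). Csrp3 was lower in 4 of 4 Yap1S5A-labelled livers than in any GFP-labelled liver, while the groups overlapped in quadriceps.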

How the results depend on the processing

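None of the 10 slow-fibre genes was called in quadriceps under any alternative. Leaving out each library in turn gave 602 to 1024 genes called in quadriceps (277 to 464 higher, 325 to 560 lower), against 1094. The total was lowest without GFP-labelled replicate 4 (602) and fell by over 1.5 times also without Yap1S5A-labelled replicate 1 (702) or 3 (705). It gave 4 to 6 slow-fibre genes called in liver, 1 to 2 called for the interaction, a difference in the Myh7 share of 0.657 to 1.42 percentage points (exact permutation p 0.0857 to 0.257) and a median SD of 1.64 to 2.19. In the main fits 63.6% of all genes were called in liver and 48.0% for the interaction. These shares were not calculated for the fits without 1 library. The interaction value of Tpm3, 0.20 and not called, ranged from -0.36 to 0.94. It turned negative without Yap1S5A-labelled quadriceps replicate 1 or GFP-labelled quadriceps replicate 1 or 4.

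With all 16 libraries in one fit, 334 genes were called lower in quadriceps and 1 slow-fibre gene was called in liver. Of 24 list genes called in quadriceps, 9 were called in that fit, 16 with the replicate block, 14 with the slow-fibre covariate and 12 in every fit without 1 library. With the covariate, chosen after seeing the data, 719 genes were called, 372 of them lower. With no filter on low counts, 7 slow-fibre genes were called in liver, where the main fit called 63.6% of all genes. The share over all genes was not calculated for liver under the alternatives. For the interaction, DESeq2 called 4 and the replicate block 7, against 51.6% and 45.8% of all genes. In part these were genes too low to test in liver alone. The replicate block called 757 genes in quadriceps (355 higher, 402 lower) and 4 slow-fibre genes in liver. Deviations of same-numbered libraries of the 2 vectors had correlations of -0.277 to 0.0855 in quadriceps and -0.0965 to 0.0279 in liver. Those of the 2 tissues had correlations of -0.0193 to 0.0778. The values between vectors gave no sign of pairing by number. The 2 tissues can vary in different genes in the same mouse, so values near 0 do not settle whether the numbers pair them. The cause of the changes between fits was not tested. Depth limits the liver values, where 5 of the 10 genes were too low to test.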
